A study of Mus musculus with 6 samples.

Results

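Potassium channel genes were examined in the gastrocnemius, the large calf muscle, of *HrasG12V* and wild-type (WT) mice. Members were all gene symbols that begin with Kcn followed by a lower-case letter, the mouse naming stem for potassium channel pore subunits and their partners. This gave 97 of 23997 symbols: 94 for channel subunits or channel regulators and 3 for antisense or opposite-strand RNAs. The 35 members with a mean of at least 0.5 FPKM over the 6 libraries were tested, as were 13359 of all 23997 symbols. FPKM counts sequenced fragments relative to transcript length and library size, so levels of different genes can be set side by side.

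Each library came from 1 mouse, and there were 3 mice per genotype, all 21 days old and untreated. The *HrasG12V* mice (2276, 2278 and 2279) carried the Caggs-Cre transgene and 1 activated *Hras* allele (Caggs-Cre+/HrasG12V/+), a model of Costello syndrome. The WT mice (2277, 2280 and 2281), littermates according to the methods, lacked Cre but kept the floxed allele in its inactive form (Caggs-Cre-/HrasflG12V/+, also labelled Hras+/+), so the presence of Cre and of the active allele cannot be told apart. The CAG promoter of the Cre transgene is active in most tissues, and the change was therefore not limited to muscle fibers. The tissue itself holds vessels, nerve and connective tissue beside the fibers.

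Potassium channels let potassium leave or enter the cell and so set the resting potential of a muscle fiber and end its action potential. Voltage-gated (Kv) pore subunits assemble as tetramers, silent subunits join other Kv subunits without forming channels alone, and small accessory subunits of the KCNE family alter the gating of pores they bind. Inward rectifiers hold the resting potential, and those of the ATP-sensitive type couple it to the energy state of the cell. Calcium-activated channels open when calcium rises, and two-pore channels carry background leak. In bulk tissue, fewer cells of a type and less RNA per cell cannot be told apart.

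*Kcne1l*, which encodes a single-span KCNE accessory protein and is listed in RefSeq with the synonym *Kcne5*, and *Kcng4*, which encodes a silent Kv subunit, are shown first by the sequence before their start sites. They were the tested members with the highest and the lowest log2 fold change, and, of the 8 members with an unadjusted p below 0.05 and a RefSeq window, they were the 2 that held the E-box CAGCTG within 250 bases before the RefSeq start. CAGCTG is its own reverse complement, so both strands are covered, and it is 1 form of the E-box CANNTG, the class of sequence that basic helix-loop-helix factors such as MyoD recognize. The sequences are from RefSeq on GRCm38.p6, 5′ to 3′ on the minus strand where both genes lie, and the capitals mark CAGCTG. That of *Kcne1l* is chrX:142306295-142306448, 154 bases that end where the GENCODE transcript begins, since GENCODE starts the gene 96 bases further upstream than RefSeq. That of *Kcng4* is chr8:119635681-119635930, 250 bases.
Kcne1l: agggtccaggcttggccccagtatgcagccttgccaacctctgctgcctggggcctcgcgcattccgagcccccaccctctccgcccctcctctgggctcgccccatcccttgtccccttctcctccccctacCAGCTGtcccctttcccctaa
Kcng4: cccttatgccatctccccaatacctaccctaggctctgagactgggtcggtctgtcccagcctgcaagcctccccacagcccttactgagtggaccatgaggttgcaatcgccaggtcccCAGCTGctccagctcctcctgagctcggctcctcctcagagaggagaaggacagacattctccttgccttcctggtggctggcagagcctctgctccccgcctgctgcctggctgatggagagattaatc

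The motif began 117 bases before the RefSeq start of *Kcne1l*, which is 21 bases before the GENCODE start, and 130 bases before the start of *Kcng4*. One gene was higher and the other lower in *HrasG12V* muscle, so the motif was seen on both sides. CAGCTG stood in 13.0% of the 32851 RefSeq windows of 250 bases and in 9 of the 35 windows of tested members, which belong to 26 genes, 7 of them with the motif. CANNTG stood in 66.2% of all windows, in 26 of the 35 member windows (20 of the 26 genes) and in 5 of the 8 past the unadjusted threshold (*Kcna5*, *Kcna7*, *Kcnc1*, *Kcne1l* and *Kcng4*). The window of *Kcna7* lies wholly inside the gene as GENCODE places it, so its matches are not upstream of the GENCODE start. These matches describe letters only.

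*Kcne1l* was far higher in *HrasG12V* than in WT muscle and was the most abundant potassium channel transcript in every *HrasG12V* mouse. Its level was 12.5, 20.7 and 8.66 FPKM in the WT mice (2277, 2280, 2281) and 570, 234 and 344 FPKM in the *HrasG12V* mice (2276, 2278, 2279), the order in which values per mouse are given throughout. The lowest *HrasG12V* mouse lay far above the highest WT mouse, and mouse 2276 was the highest in FPKM. Group means were 14.0 ± 6.14 FPKM in WT and 383 ± 171 FPKM in *HrasG12V* muscle (SD, n = 3 each), a ratio of 27.4. On the log2(FPKM + 0.1) scale, which is used for every fold change given here, the difference (*HrasG12V* minus WT) was 4.76 (standard error, SE, 0.44; 95% interval 3.72 to 5.81, limma adjusted p = 0.041). *Kcne1l* was the 1 member of 35 with an adjusted p below 0.05, against 0.0599% of the 13359 genes (8 genes). Its log2 fold change stayed between 4.43 and 5.09 when any 1 mouse was left out, but its limma adjusted p was below 0.05 only without mouse 2276 and lay between 0.0859 and 0.308 without any of the other 5. It was also above 0.05 with no moderation of the spread (0.262), with no filter (0.0933) and with a pseudocount of 1 (0.0519).

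In the GENCODE annotation of GRCm38, *Kcne1l* (ENSMUSG00000090122) lies on chromosome X from 142304752 to 142306294 on the minus strand. Its exons overlap no other annotated gene, and none (0%) of the 50-base words of its 1543-base transcript occurs in another gene. The neighbouring genes showed no such increase. *Acsl4*, an acyl-CoA synthetase 11698 bases upstream, was at 13.6, 14.0 and 15.4 FPKM in the WT mice (2277, 2280, 2281). In the *HrasG12V* mice (2276, 2278, 2279) it was at 5.53, 10.9 and 10.1 FPKM, lower in all 3 than in any WT mouse. Its log2 fold change was -0.75 (limma unadjusted p = 0.031, adjusted p = 0.475), so it was lower at an unadjusted p below 0.05. *Nxt2*, an mRNA export cofactor 65059 bases away on the other side, had 2.80 to 3.10 FPKM in WT and 3.42 to 4.16 FPKM in *HrasG12V* muscle (log2 fold change 0.32, limma adjusted p = 0.539). Since *Kcne1l* is X-linked, sex-specific transcripts were compared. *Xist* was at 26.6 FPKM in WT mouse 2277 and at 13.2 FPKM in *HrasG12V* mouse 2276, and at most 0.40 FPKM in the other 4 mice, whose Y-linked *Ddx3y* had 26.6 to 28.7 FPKM. Each genotype therefore held 1 library without Y-linked transcripts, and *HrasG12V* mouse 2276 was the only one of its genotype. Among the 4 others *Kcne1l* was at 20.7 and 8.66 FPKM in WT and at 234 and 344 FPKM in *HrasG12V* muscle. With the presence of Y-linked transcripts as a covariate, chosen after the data were seen, its log2 fold change was again 4.76, with a limma adjusted p of 0.0503.

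**Figure D1:**
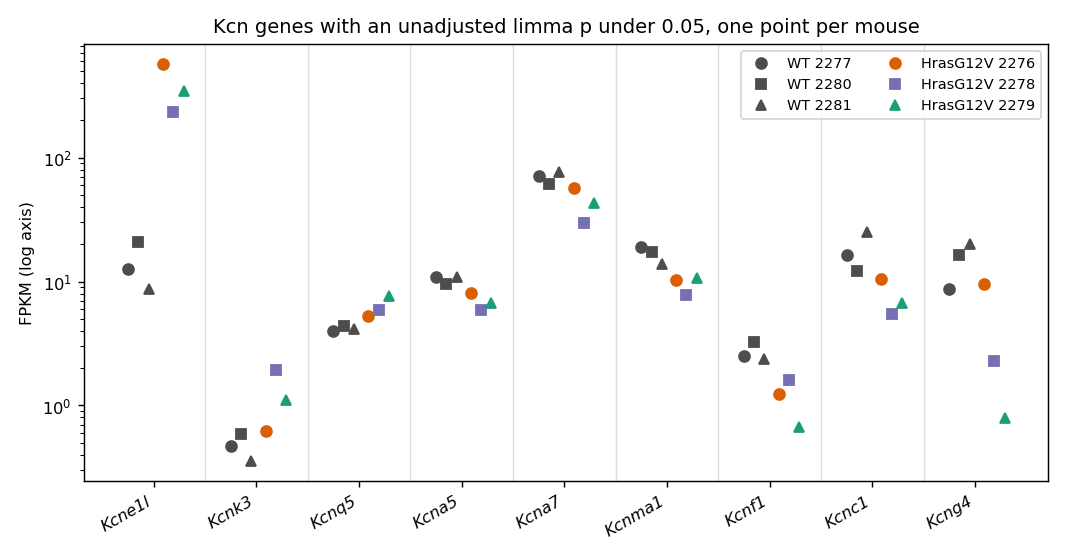
FPKM of the 9 members with an unadjusted limma p below 0.05, on 1 log axis, with genes ordered by log2 fold change and 1 point per mouse (n = 3 per genotype). *Kcne1l*, *Kcnk3* and *Kcnq5* have all *HrasG12V* mice above all WT mice, while the genotypes of *Kcng4* overlap through mouse 2276 at 9.47 FPKM.

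*Kcne1l* made up 4.03%, 6.89% and 2.25% of the summed FPKM of the 35 tested members in WT mice 2277, 2280 and 2281. In *HrasG12V* mice 2276, 2278 and 2279 it made up 67.5%, 56.1% and 59.6%. Among the tested members it ranked 10, 5 and 12 in the WT mice and 1 in each *HrasG12V* mouse, and among all 23997 symbols it moved from ranks between 2909 and 5709 to ranks between 162 and 254. Without *Kcne1l* the sum of the other 34 was 298, 279 and 376 FPKM in WT and 274, 183 and 233 FPKM in *HrasG12V* muscle, lower in every *HrasG12V* mouse, though mouse 2276 lay close to WT mouse 2280. These sums follow the most abundant members, *Kcna7*, *Kcnj11*, *Kcnc4* and *Kcnj12*.

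**Figure D2:**
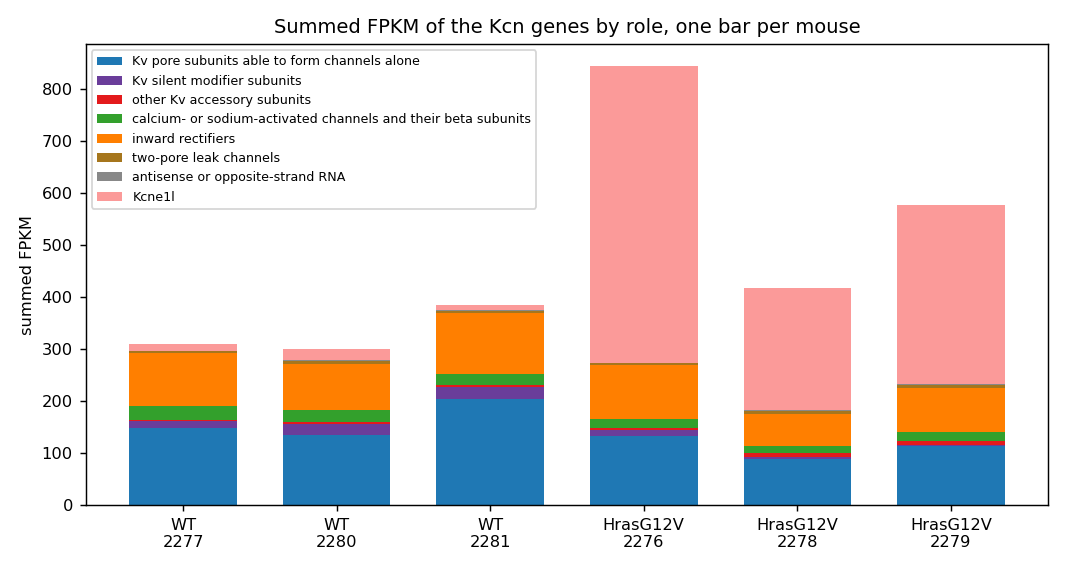
Summed FPKM of the tested members in each mouse, stacked by role with *Kcne1l* apart on top. *Kcne1l* is a thin layer in the 3 WT mice and the largest layer in the 3 *HrasG12V* mice, where it was 234 to 570 FPKM.

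Of the 35 tested members, 3 had an unadjusted limma p below 0.05 and were higher in *HrasG12V* muscle (8.57%), beside 5.18% of all genes tested, and 6 were lower (17.1%), beside 4.99%. In either direction this was 9 members (25.7%), beside 10.2% of all genes. All 3 *HrasG12V* mice lay above all 3 WT mice for 3 members, where 8.11% of all genes did so, and below them for 5 (14.3%), where 10.4% did. The higher members were *Kcne1l*, *Kcnk3* and *Kcnq5*, and the lower ones *Kcna5*, *Kcna7*, *Kcnc1*, *Kcnf1*, *Kcng4* and *Kcnma1*. Of the tested members 4 (*Kcna6*, *Kcnab2*, *Kcnk3* and *Kcnn4*) reached the minimum of 0.5 FPKM only through the *HrasG12V* mice, so the count of higher members includes 1, *Kcnk3*, that the filter kept through the group where it was high. All called members except *Kcne1l* had adjusted p-values of 0.382 to 0.491. The median log2 fold change of the 35 members was -0.20 (22 below 0 and 13 above), against -0.03 for all genes tested, and the 3 *HrasG12V* mice taken singly gave members' medians of -0.18, -0.20 and -0.17 (2276, 2278, 2279). The other 26 members had log2 fold changes of -0.92 to 1.70.

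**Figure D3:**
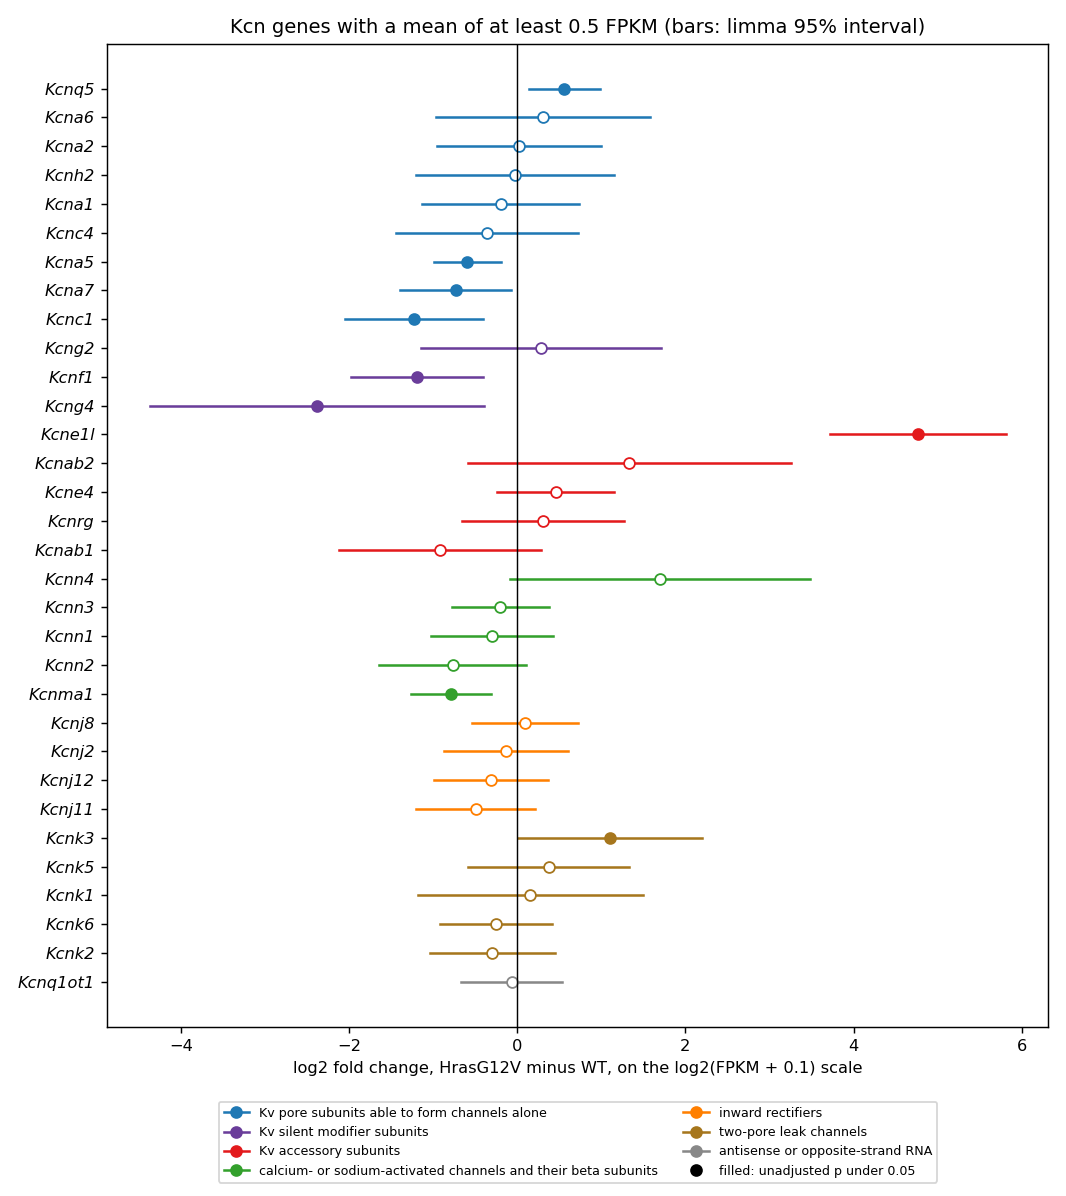
Log2 fold change (*HrasG12V* minus WT, log2(FPKM + 0.1) scale) of the tested members reported here, grouped and coloured by role, with limma 95% intervals and filled points for an unadjusted p below 0.05. *Kcne1l* at 4.76 stands apart from the rest, which lie between -2.38 and 1.70.

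The Kv pore subunits numbered 30, of which 12 were tested, with 1 higher and 3 lower at the unadjusted threshold and a median log2 fold change of -0.23. *Kcna7* (Kv1.7), a subunit found mainly in skeletal muscle and heart, had the highest mean of any member in WT muscle. Its level was 70.8, 61.3 and 76.6 FPKM in WT and 56.8, 29.7 and 42.8 FPKM in *HrasG12V* muscle. All *HrasG12V* mice were below all WT mice, with mouse 2276 nearest to WT (log2 fold change -0.73, limma adjusted p = 0.477). The unadjusted p held in 1 of the 6 sets that leave out a mouse.

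*Kcnc1* (Kv3.1), a fast-gating subunit that serves rapid repolarization, was at 16.2, 12.2 and 25.1 FPKM in WT and at 10.5, 5.45 and 6.68 FPKM in *HrasG12V* muscle. The groups did not overlap, and the WT mice spread more widely than the *HrasG12V* mice (log2 fold change -1.22, SE 0.34, limma adjusted p = 0.398). *Kcna5* (Kv1.5), a delayed rectifier known from heart, vascular smooth muscle and skeletal muscle, was at 10.9, 9.60 and 10.9 FPKM in WT and at 8.10, 5.91 and 6.77 FPKM in *HrasG12V* muscle. Here too the groups were separate (log2 fold change -0.60, SE 0.17, limma adjusted p = 0.398). For both genes the unadjusted p stayed below 0.05 in all 6 sets that leave out a mouse.

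*Kcnq5* (Kv7.5), of the family that carries the slow M-type current and is present in skeletal and smooth muscle, was the pore subunit that was higher. It was at 3.97, 4.38 and 4.11 FPKM in WT, a narrow range, and at 5.24, 5.87 and 7.62 FPKM in *HrasG12V* muscle, all above WT (log2 fold change 0.56, limma adjusted p = 0.433). The unadjusted p held in 4 of the 6 sets that leave out a mouse, and was lost without WT mouse 2277 or 2281. Rescaling the libraries to the same total FPKM also removed the call at a similar log2 fold change (0.55), and an exon of the unnamed transcript *Gm26580* overlaps *Kcnq5* on the other strand.

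The other 8 tested Kv pore subunits did not pass the unadjusted threshold. *Kcnc4* (Kv3.4), the pore partner of *Kcne3* in muscle, was at 18.5, 22.1 and 55.0 FPKM in WT and 22.2, 16.0 and 30.2 FPKM in *HrasG12V* muscle, so that WT mouse 2281 alone stood high (log2 fold change -0.36, 95% interval -1.44 to 0.73). *Kcna2*, *Kcna1*, *Kcnh2* and *Kcna6*, with means of 0.587 to 2.05 FPKM, had log2 fold changes between -0.20 and 0.31. For *Kcna6*, 39.9% of the 50-base words of its longest transcript also occur in other genes, and an exon of *Gm26673* overlaps it on the other strand.

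Of the 10 silent Kv subunits 3 were tested, and 2 were lower. *Kcnf1* (Kv5.1) was at 2.51, 3.24 and 2.35 FPKM in WT and at 1.23, 1.62 and 0.675 FPKM in *HrasG12V* muscle. Each *HrasG12V* mouse was below every WT mouse (log2 fold change -1.19, SE 0.33, limma adjusted p = 0.392), and the unadjusted p held whichever mouse was left out. *Kcng4* (Kv6.4) was at 8.70, 16.2 and 20.0 FPKM in WT and at 9.47, 2.30 and 0.795 FPKM in *HrasG12V* muscle. Mice 2278 and 2279 were far below the WT range, whereas mouse 2276 lay inside it (log2 fold change -2.38, SE 0.83, limma adjusted p = 0.456). The log2 fold change was -3.28 without mouse 2276 and -1.57 without mouse 2279, and the unadjusted p held in 2 of the 6 sets that leave out a mouse. The third, *Kcng2*, had 0.259 to 0.686 FPKM in WT and 0.381 to 1.34 FPKM in *HrasG12V* muscle.

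Accessory subunits and regulators numbered 13, with 5 tested, and *Kcne1l* was the only one past the unadjusted threshold. The related *Kcne4*, which encodes an inhibitory KCNE subunit, was at 1.12, 1.11 and 1.53 FPKM in WT and 1.19, 2.09 and 2.10 FPKM in *HrasG12V* muscle, overlapping through mouse 2276 (log2 fold change 0.46, 95% interval -0.24 to 1.15). *Kcne3*, the partner of Kv3.4, had a mean of 0.423 FPKM, just under the minimum, and ranged from 0.244 to 0.537 FPKM in WT and from 0.415 to 0.550 FPKM in *HrasG12V* muscle. *Kcne1* and *Kcne2* were at 0 in 4 of 6 mice and did not exceed 0.0293 FPKM in any. *Kcnq1* (Kv7.1), the pore subunit whose current the human KCNE5 protein is known to suppress, was at 0.387, 0.365 and 0.272 FPKM in WT and 0.523, 0.421 and 0.323 FPKM in *HrasG12V* muscle, below the minimum, so that *Kcne1l* exceeded it in every mouse. *Kcnab1*, which encodes a cytoplasmic Kv beta subunit, was at 1.16, 1.51 and 1.94 FPKM in WT and 0.303, 1.04 and 1.25 FPKM in *HrasG12V* muscle, with the groups overlapping (log2 fold change -0.92, limma adjusted p = 0.588).

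Of the 12 calcium- or sodium-activated channel members 5 were tested, with 1 lower. *Kcnma1*, the pore of the large-conductance calcium-activated (BK) channel, was at 18.8, 17.4 and 13.8 FPKM in WT and at 10.3, 7.83 and 10.7 FPKM in *HrasG12V* muscle. The groups were separate (log2 fold change -0.79, SE 0.20, limma adjusted p = 0.382), and the unadjusted p held in all 6 sets that leave out a mouse. An exon of *4930519K11Rik* overlaps it on the other strand, and the strand setting of the counting is not given in the sources used here. The small-conductance channels *Kcnn1*, *Kcnn2* and *Kcnn3*, the last known to return in denervated fibers, did not pass. *Kcnn3* was at 1.12, 1.13 and 0.923 FPKM in WT and 0.859, 0.974 and 0.887 FPKM in *HrasG12V* muscle (log2 fold change -0.20), and *Kcnn2* at 1.09, 1.35 and 1.93 FPKM against 1.26, 0.634 and 0.611 FPKM (log2 fold change -0.77, limma adjusted p = 0.539). In *Kcnn2* mice 2278 and 2279 were below the WT range and mouse 2276 inside it. Of the 50-base words of the longest *Kcnn2* transcript, 14.2% also occur in other genes.

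*Kcnma1* and *Kcna5* are also abundant in vascular smooth muscle, so vessel markers were read beside them. The summed FPKM of 10 smooth muscle and pericyte genes was 367 to 427 in WT and 223 to 326 in *HrasG12V* muscle, with 3 of 10 lower and none higher at the unadjusted threshold (*Rgs5*, *Lmod1* and *Notch3*; median log2 fold change -0.31). The sum of 7 endothelial genes was 200.1 to 242 FPKM in WT and 167 to 177 FPKM in *HrasG12V* muscle, with 2 of 7 lower (*Cdh5* and *Tie1*; median -0.37). The separation of the smooth muscle sums came with *Rgs5*, the most abundant gene of that list over the 6 mice: the other 9 genes, among which *Acta2* was at 139 FPKM in WT mouse 2281 and 51.5 and 59.0 FPKM in the other WT mice, summed to 151 to 238 FPKM in WT and 115 to 193 FPKM in *HrasG12V* muscle, which overlap, and 6 of the 10 had log2 fold changes below 0, while 4 (*Tagln*, *Cnn1*, *Smtn* and *Cspg4*) had values above 0. No marker of either list was at 0. *Kcnmb1*, the smooth muscle beta subunit of the BK channel, was at 0.297, 0.270 and 0.237 FPKM in WT and 0.0844, 0.277 and 0.214 FPKM in *HrasG12V* muscle, below the minimum. The part of vessel cells in the *Kcnma1* and *Kcna5* values was not tested.

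None of the 4 tested inward rectifiers, of 15, passed the unadjusted threshold. *Kcnj11* (Kir6.2), the pore of the ATP-sensitive channel of muscle fibers, was at 45.7, 36.7 and 58.8 FPKM in WT and 46.5, 25.3 and 29.8 FPKM in *HrasG12V* muscle, with mice 2278 and 2279 below the WT range and mouse 2276 inside it (log2 fold change -0.50, 95% interval -1.21 to 0.21). *Kcnj8* (Kir6.1), its vascular counterpart, was at 13.1, 12.7 and 8.65 FPKM in WT and 16.3, 9.49 and 11.3 FPKM in *HrasG12V* muscle (log2 fold change 0.09, 95% interval -0.54 to 0.73). *Kcnj12* (Kir2.2) and *Kcnj2* (Kir2.1), which carry the classical inward rectifier current, overlapped as well. *Kcnj12* was at 24.2, 25.1 and 37.9 FPKM against 29.6, 17.0 and 24.1 FPKM (log2 fold change -0.31), and *Kcnj2* at 19.0, 13.3 and 11.5 FPKM against 10.9, 10.4 and 19.4 FPKM (log2 fold change -0.13). The sign for *Kcnj2* and *Kcnj8* changed when single mice were left out. *Abcc9*, the sulfonylurea receptor subunit that pairs with both Kir6 pores, had 80.2 to 84.2 FPKM in WT and 41.9, 60.3 and 77.4 FPKM in *HrasG12V* mice 2276, 2278 and 2279, with no overlap between genotypes but a wide *HrasG12V* range (log2 fold change -0.50, limma adjusted p = 0.565).

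Two-pore leak channels numbered 14, with 5 tested and 1 higher. *Kcnk3* (TASK-1), an acid-sensitive leak channel that passed the filter only through its *HrasG12V* values, was at 0.473, 0.590 and 0.354 FPKM in WT and at 0.622, 1.93 and 1.12 FPKM in *HrasG12V* muscle. All *HrasG12V* mice were above WT, mouse 2276 only just (log2 fold change 1.10, SE 0.46, limma adjusted p = 0.491). The unadjusted p held in 1 of the 6 sets that leave out a mouse, and was lost with the same total FPKM (log2 fold change 1.12), with no moderation (1.10) and with a pseudocount of 1 (0.55). An exon of *Gm9899* overlaps it on the other strand. *Kcnk3* is also known from brown fat. The sum of 7 adipocyte markers was 406 to 730 FPKM in WT and 824 to 1007 FPKM in *HrasG12V* muscle, with 2 of 7 higher (*Cfd* and *Ucp1*; median log2 fold change 1.39). *Fabp4* made up most of each sum, and without it the other 6 summed to 52.2, 56.4 and 10.4 FPKM in WT and 55.6, 267 and 189 FPKM in *HrasG12V* muscle, with mouse 2276 inside the WT range. *Ucp1*, the defining gene of brown fat, was at 1.94, 0.662 and 0 FPKM in WT and 5.60, 35.8 and 5.92 FPKM in *HrasG12V* muscle, so mouse 2278 was the highest for both *Ucp1* and *Kcnk3*. The part of adipocytes in the *Kcnk3* values was not tested. *Kcnk6*, *Kcnk2*, *Kcnk1* and *Kcnk5* had log2 fold changes of -0.30 to 0.37 and overlapped.

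Some members were high in mice 2278 and 2279 alone. They were chosen after their values were seen. *Kcnn4*, the intermediate-conductance calcium-activated channel of lymphocytes and other blood cells, was at 0.249, 0.367 and 0.220 FPKM in WT, at 0.282 FPKM in *HrasG12V* mouse 2276, but at 1.79 FPKM in mouse 2278 and 2.38 FPKM in mouse 2279 (log2 fold change 1.70, SE 0.75, limma adjusted p = 0.51). *Kcnab2*, a Kv beta subunit, was at 0.438, 0.624 and 0.349 FPKM in WT, 0.277 FPKM in mouse 2276, but 2.76 FPKM in mouse 2278 and 2.50 FPKM in mouse 2279 (log2 fold change 1.33, limma adjusted p = 0.625). An exon of *Gm16334* overlaps it on the same strand, so reads there cannot be assigned to either gene by strand. *Kcna3* (Kv1.3), the classical Kv channel of T cells, was below the minimum, with at most 0.0605 FPKM in WT, 0.0149 FPKM in mouse 2276, but 0.507 FPKM in mouse 2278 and 0.618 FPKM in mouse 2279. In all of them mouse 2276 was inside or below the WT range, and the genotypes overlapped for this reason.

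The summed FPKM of 9 B and T cell markers was 1.34 to 1.71 in WT, 2.44 in mouse 2276, and 98.9 and 91.4 in mice 2278 and 2279, with 8 of 9 markers higher at the unadjusted threshold (median log2 fold change 3.57). *Cd79a* of B cells, for example, reached at most 0.367 FPKM in WT and 0.161 FPKM in mouse 2276, yet 26.4 FPKM in mouse 2278 and 20.9 FPKM in mouse 2279. *Kcne1l* had its highest FPKM in mouse 2276, at 570. That library also had the highest summed FPKM, 814013 against 429351 in mouse 2278 and 413020 in mouse 2279. By rank among all symbols *Kcne1l* stood at 199, 254 and 162 in mice 2276, 2278 and 2279. Its order among these mice therefore depended on the scale. *Kcnn4* and *Kcnab2* passed the filter only through mice 2278 and 2279. The part of lymphocytes in these values was not tested.

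**Figure D4:**
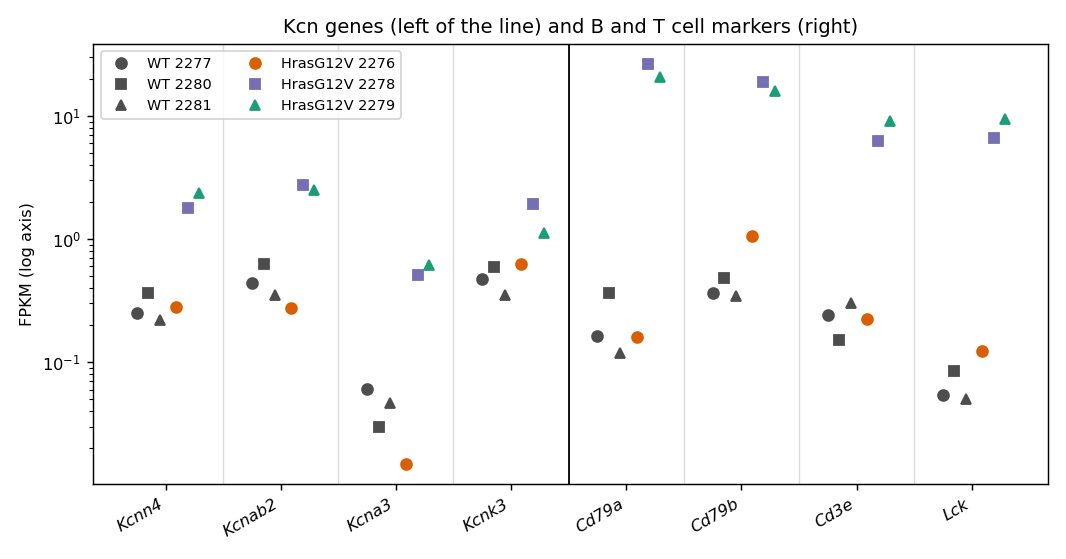
FPKM on a log axis of *Kcnn4*, *Kcnab2*, *Kcna3* and *Kcnk3* (left) and of the B and T cell genes *Cd79a*, *Cd79b*, *Cd3e* and *Lck* (right), 1 point per mouse. Mice 2278 and 2279 are the highest for every gene shown, while *HrasG12V* mouse 2276 is inside or below the WT range except for *Kcnk3* (0.622 FPKM), *Cd79b* (1.06 FPKM) and *Lck* (0.123 FPKM), where it is above it.

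Of the 62 members under the minimum of 0.5 FPKM, 35 had a mean below 0.1 FPKM and 27 a mean of 0.1 FPKM or more. Of these 62, 4 were listed at 0 in all 6 mice (*Kcnd3os*, *Kcnk16*, *Kcnk9* and *Kcnv1*), 28 were at 0 in some mice and 30 were above 0 in all. The highest value among them was 0.686 FPKM (*Kcnip2* in mouse 2279). The tested member with the lowest mean was *Kcna6*, at 0.587 FPKM. A 0 does not show that a gene was silent, since the fiber genes *Acta1* and *Myh4* were listed at 0 in all 6 libraries and *Ckm* in 5. *Kcnq1ot1*, the RNA made antisense to *Kcnq1*, was the 1 antisense member tested, at 1.02 to 1.07 FPKM in WT and 0.802 to 1.17 FPKM in *HrasG12V* muscle. The tested members had a median mean level of 2.00 FPKM, against 6.93 FPKM for all genes tested, and 10 of the 35 exceeded 10 FPKM.

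A pair of other lists was read beside the members, against the 10.2% of all genes past the unadjusted threshold. Of 22 channel partners and transport genes (sulfonylurea receptors, auxiliary proteins of Kv and BK channels, counter-ion and HCN channels and sodium-potassium ATPase subunits) 15 were tested, and none was higher or lower at an unadjusted limma p below 0.05 (0 of 15, median log2 fold change -0.19). Of 9 sodium and chloride channel genes 8 were tested, and none passed (0 of 8, median -0.24). *Scn4a*, the sodium channel of the fiber membrane, was at 107, 86.9 and 111 FPKM in WT and 76.3, 65.4 and 97.7 FPKM in *HrasG12V* muscle (log2 fold change -0.36, limma adjusted p = 0.654).

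Markers of the labelled tissue were present: 8 of 10 fiber genes were tested, with *Mylpf* at 10760 to 36114 FPKM, and 1 (*Cacna1s*) was lower. Of these 8, *Ckm* was listed at 0 in 5 mice, *Myh1* in WT mice 2277 and 2280 and *Tnnt3* in mouse 2276, zeros that may be failed estimates, so no fold change is given for them. *Hras* itself was at 36.8, 36.0 and 51.8 FPKM in WT and 58.8, 28.9 and 16.0 FPKM in *HrasG12V* muscle, a sum over both alleles that does not show the mutation. Schwann cell markers summed to 142 to 384 FPKM in WT and 236 to 644 FPKM in *HrasG12V* muscle (2 of 8 higher), macrophage markers to 54.8 to 65.7 and 61.4 to 112 FPKM (1 of 7 higher), and neuron markers to 1.69 to 2.55 and 1.55 to 2.24 FPKM (1 tested, not past the threshold). The summed FPKM of a library was 413020 to 814013, highest in mouse 2276, while each library had a median of 6.39 to 6.64 FPKM over tested genes.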

How the data were processed

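Gastrocnemius mRNA of 6 mice was sequenced from stranded libraries, 1 per mouse. The authors mapped reads with TopHat and computed FPKM per gene with Cufflinks and Cuffnorm, and these FPKM are the deposited values used. The submitters' processing notes name GRCm38 and mm10, and versions, annotation and strand setting are not given in the sources. Whole reads could not be recovered: the fullest 2% interval of ratios of low values held 1.90% to 11.9% of genes per pair of libraries. Depth is therefore known only as the nominal depth in the methods, not per gene, and no count test was used.

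Genotypes, from the labels, were compared with limma 3.58.1 (R 4.3.3; lmFit, eBayes with trend, two-sided, no covariate) on log2(FPKM + 0.1) over the 13359 symbols with a mean of at least 0.5 FPKM, with Benjamini-Hochberg adjustment, after the script was tested on simulated data. Members, roles and lists were chosen with earlier results of these data known, so no test was made over a list. Named members are those past p of 0.05 or without overlap, the 12 most abundant, those with known muscle roles and those beside the minimum. *Kcnn4*, *Kcnab2*, *Kcna3*, *Kcnab1*, *Kcnq1*, *Kcnmb1* and others outside this rule were chosen after their values were seen. Results for some genes are not reported here, though counts, sums and medians include them. Positions came from GENCODE on GRCm38, where all 35 tested symbols were found, and windows from RefSeq, which had 26 of them. Alternatives were pseudocounts of 1 and 0.01, no filter, a mean of at least 1 FPKM, quantile normalization, median centring, the same total FPKM, no moderation, array weights and leaving out each mouse. Marker sums without *Rgs5* or *Fabp4* and a covariate for Y-linked transcripts (*Ddx3y* above 1 FPKM) were added after the data were seen.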

Additional observations from a re-analysis of the deposited data

How the results depend on the processing

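*Kcna5*, *Kcnc1*, *Kcne1l*, *Kcnf1* and *Kcnma1* had an unadjusted limma p below 0.05 and the same direction under all 16 alternatives. The 9 members past that threshold became 14 with no filter, when 93 members were tested, and 15 with array weights, and 5 to 16 when 1 mouse was left out (5 without WT mouse 2281, 16 without *HrasG12V* mouse 2276). The share of all genes past it moved as well, from 10.2% to 9.34% with no filter, 22.8% with array weights, 4.54% without 2281 and 29.8% without 2276. The 3 higher ones became 7 with no filter, 1 with the same total FPKM, 6 with array weights and 1 to 7 without 1 mouse, and the 6 lower ones 4 to 9 without 1 mouse. The higher ones with array weights and without mouse 2276 include *Kcnk3*, *Kcnab2* and *Kcnn4*, which the filter kept only through the *HrasG12V* mice. Shares of all genes by direction under these alternatives are not given here, so the counts by direction have no such measure beside them. The 1 member past the adjusted p became 0 with a pseudocount of 1, with no filter, with no moderation and with the Y-linked covariate, 5 with array weights, and 0 to 6 without 1 mouse (6 without mouse 2276). The 5 and the 6 both include *Kcnab2* and *Kcnn4*, which the filter kept only through the *HrasG12V* mice. The share of all genes past the adjusted p under these alternatives is not given here, so these counts cannot be set against it. The log2 fold change of *Kcne1l* was 4.67 with a pseudocount of 1 and 4.76 with no filter, no moderation or the Y-linked covariate, where its limma adjusted p was 0.0519, 0.0933, 0.262 and 0.0503, and 4.43 to 5.09 without 1 mouse. The members' median of -0.20 was -0.11 with a pseudocount of 1, -0.22 with 0.01, -0.025 with no filter, -0.30 with a mean of at least 1 FPKM, -0.28 after quantile normalization, -0.24 with array weights and -0.24 to -0.11 without 1 mouse.

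Among 269 values under alternatives of the members that the naming rule gave, *Kcne1l* apart, 233 kept direction and side of the threshold, 22 lost the unadjusted call (*Kcna7*, *Kcng4*, *Kcnk3* and *Kcnq5*), 8 gained it (*Kcna6*, *Kcne4*, *Kcnj11* and *Kcnn2*) and 6 changed sign. These were *Kcnc4* without WT mouse 2281 (0.12; range -0.66 to 0.12 without 1 mouse), *Kcnj2* without 2277 (0.071) or 2278 (0.03; range -0.42 to 0.071 without 1 mouse), and *Kcnj8* with array weights (-0.17) or without 2281 (-0.10) or 2276 (-0.12; range -0.12 to 0.26). Of members outside that rule, *Kcnn4* gained the unadjusted call after quantile normalization, with array weights, with the Y-linked covariate and without mouse 2276, *Kcnab2* and *Kcnn1* with array weights and without mouse 2276, and *Kcnab1* after quantile normalization and with the Y-linked covariate. The cause of these changes was not tested, apart from the number of genes or mice that an alternative leaves. No paired analysis was possible because the labels give no litter by which mice could be paired across genotypes. Read counts per gene are unknown, so the precision of a low FPKM rests on the spread between mice.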
